A study of Homo sapiens with 12 samples.

Results

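The mitochondrial ribosomal protein genes are described here across wild-type and ΔLEO1 human fibroblasts in high and low serum. They were taken from the gene count table as the protein-coding genes whose symbol starts with MRPL or MRPS followed by a digit. This rule found 78 of the 60671 genes in the table, 49 with an MRPL and 29 with an MRPS symbol, and left out 86 pseudogenes and non-coding genes with matching symbols. Of the 78 genes, 77 passed the filter on low counts (more than 1 CPM, a count scaled to the total of the library, in 3 or more libraries) and were tested together with the other genes, 13236 in all. MRPL53 did not pass and had between 0 and 4 counts in a library.

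Mitochondrial ribosomes translate the few mRNAs that are encoded by mitochondrial DNA, all of which specify subunits of the respiratory chain and of the ATP synthase. Their RNA comes from the mitochondrial genome, while every one of their proteins is made in the cytosol from a nuclear gene and imported. The large subunit carries the peptidyl transferase center and the small subunit decodes the mRNA. Some of the proteins belong to families shared with bacterial ribosomes, and others occur only in mitochondrial ribosomes. By their place in the ribosome, 51 of the genes encode large subunit proteins, among them MRPS18A and MRPS30, and 26 encode small subunit proteins. MRPS36 is a subunit of the 2-oxoglutarate dehydrogenase complex and is not part of the ribosome. By family, 46 genes were classed with those shared with bacteria and 31 with those of mitochondrial ribosomes only. MRPS18A and MRPS18B are in the latter class, although they are related in sequence to a bacterial ribosomal protein.

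The cells were BJ-5ta, human foreskin fibroblasts made immortal by expression of telomerase. Sequencing libraries of poly(A) RNA were made from the wild-type line and from ΔLEO1 cells, made with CRISPR/Cas9 and guides directed at the first exons of LEO1. LEO1 is a subunit of the PAF1 complex, which acts in transcription elongation. Both genotypes were grown in RPMI medium with 10% fetal bovine serum and penicillin/streptomycin, or kept for 10 days with 0.1% serum, a treatment that brings fibroblasts into quiescence. These are called high and low serum below. Each of the 4 groups had 3 libraries, numbered 1 to 12 over the series. All ΔLEO1 libraries were made from 1 clone, and differences between clones and the loss of LEO1 cannot be told apart. It is not stated whether the libraries of a group were separate cultures, so that p-values measure only the spread between these libraries, which may be technical.

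LEO1 was at 20.4 to 30.4 CPM in the 6 wild-type libraries and at 0.661 to 1.44 CPM in the 6 ΔLEO1 libraries. The 10 fibroblast markers summed to 52464 to 76192 CPM, and the 5 epithelial markers to 0.842 to 1.75 CPM. The 5 markers of blood cells summed to 0.357 to 0.776 CPM in wild-type and 1.55 to 7.13 CPM in ΔLEO1 cells, where PTPRC was at 1.37 to 7.10 CPM. The 5 endothelial markers summed to 2.01 to 5.55 CPM in wild-type and 0.3996 to 0.645 CPM in ΔLEO1 cells, with TEK as the gene that differed. Gene counts per library were 26240632 to 45315560. Gene counts were also divided by the effective ERCC library size, the total of the added ERCC transcripts times a scaling factor given below. This gave 69.5 to 126 in wild-type and 105 to 158 in ΔLEO1 cells in high serum. In low serum it gave 37.3 to 60.3 in wild-type and 30.0 to 90.7 in ΔLEO1 cells. Library 12, which has the highest of the last values, also stood apart from libraries 10 and 11 of its group in mRNAs of mitochondrial DNA, at 19852 against 34075 and 36228 CPM. In every group the highest-numbered library (3, 6, 9 and 12) was the lowest in DCN, a matrix proteoglycan among the fibroblast markers. It was at 918 against 1587 and 1645 CPM in wild-type and 524 against 943 and 891 CPM in ΔLEO1 cells in high serum, and at 5731 against 6355 and 6020 CPM and 2820 against 3621 and 3617 CPM in low serum. The sum of the 10 fibroblast markers did not follow DCN. It was the lowest of the group in libraries 3 and 6 (58875 and 64006 CPM) and the highest in libraries 9 and 12 (76192 and 61317 CPM). The part of these differences in the results was not tested.

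The genes are spread over 21 chromosomes. In 21 of them another gene starts on the opposite strand within 1000 bases upstream, and in 17 of these it is protein-coding. Promoter sequences from RefSeq (GRCh38.p14, 250 bases before to 50 bases after the start) were matched by symbol for 69 of the 78 genes, and 3 motifs were searched on both strands. The ETS motif CCGGAAG, bound by factors such as GABPA, was in 29 promoters (42.03%), against 10.3% of all 35116 promoters and 19.7% of the promoters of tested genes. The YY1 motif AAGATGGC was in 20 promoters (28.99%), against 2.89% of all promoters and 5.66% of those of tested genes. The palindromic NRF1 motif was in 1 promoter, that of MRPL17, or 1.45%, against 1.24% of all promoters and 2.37% of those of tested genes. Both the ETS and the YY1 motif were in 8 promoters and neither in 28. The letters AAG end the ETS motif and begin the YY1 motif, so that a stretch can hold both. A match describes the sequence only.

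The sites below belong to genes that the comparisons turn on, and show each motif in capitals with its neighboring bases, 5′ to 3′ on the strand of the gene. The first 5 hold the ETS motif, which in MRPS21, MRPL48 and MRPL28 reads as its reverse complement, and MRPS21 has it at 2 places. The last 4 hold the YY1 motif, as its reverse complement in MRPL32.
MRPS21, chr1:150293840-150293866, plus strand: gtaatttccgCTTCCGGtagtgagaac
MRPS21, chr1:150293858-150293884, plus strand: agtgagaaccCTTCCGGtgggctaggt
MRPL48, chr11:73787801-73787827, plus strand: atttcagaagCTTCCGGaactaaaatg
MRPL28, chr16:370515-370541, minus strand: ggcagatcggCTTCCGGttccggtggg
MRPS31, chr13:40771206-40771232, minus strand: aggcgccaggCCGGAAGcggaagagag
MRPS24, chr7:43869481-43869508, minus strand: cgcttggcccAAGATGGCggcctccgtg
MRPS7, chr17:75261888-75261915, plus strand: gtggccagccAAGATGGCtgcccccgca
MRPS30, chr5:44808950-44808977, plus strand: atcgcgggcaAAGATGGCggcggccagg
MRPL32, chr7:42932144-42932171, plus strand: cccgcgctccGCCATCTTtacccgaaga

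Levels of the genes were compared per length, as counts per kilobase of merged exons, scaled as CPM, over the 12 libraries. The levels ran from 154 ± 16.2 (SD, n = 12) for MRPS34, a small subunit protein, to 0.165 ± 0.102 for MRPL53, a large subunit protein. Their median was 37.8 with quartiles of 20.9 and 64.1, against a median of 18.6 over the tested genes. The coefficient of variation over the genes was 0.681 to 0.754 in a library. After MRPS34 came MRPL51 (129 ± 13.5) and MRPL3 (128 ± 17.3), which differed by less than their SD, and then MRPL18 (101.2 ± 8.44) and MRPS10 (100.9 ± 14.6), which also differed by less than their SD. These SDs take in the differences between the groups. MRPL51 and MRPL18 were the higher of their pairs in wild-type cells, and MRPL3 and MRPS10 in ΔLEO1 cells. In high serum MRPL51 was at 139 and MRPL3 at 121 in wild-type cells, and at 124 and 152 in ΔLEO1 cells. At the low end, above MRPL53, were MRPL46 (1.30 ± 0.251), MRPL38 (3.77 ± 0.511), MRPS24 (6.38 ± 3.84) and MRPL23 (7.37 ± 1.34). With the length of the longest transcript in place of merged exons, MRPL23 was at 17.4, MRPL38 at 5.33, MRPS10 at 73.5 and MRPS34 at 119, below MRPL3 at 149.

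Exons shared with another gene on the same strand bear on these values, since reads there cannot be assigned to 1 gene. In 7 of the genes at least 20% of exon bases lie in such stretches, and 5 of the 7 are among the 10 lowest levels. They are MRPL12 (68.2%), MRPL53 (45.2%, with CCDC142), MRPL38 (37.5%), MRPS28 (35.8%), MRPS17 (27.0%), MRPS24 (23.2%, with the readthrough gene URGCP-MRPS24) and MRPL33 (21.1%, with BABAM2). Their values are uncertain for this reason. In all, 41 of the genes overlap an exon of another gene on either strand, and 27 neither overlap one nor share over 1% of their stretches of 58 bases with another gene.

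**Figure D1:**
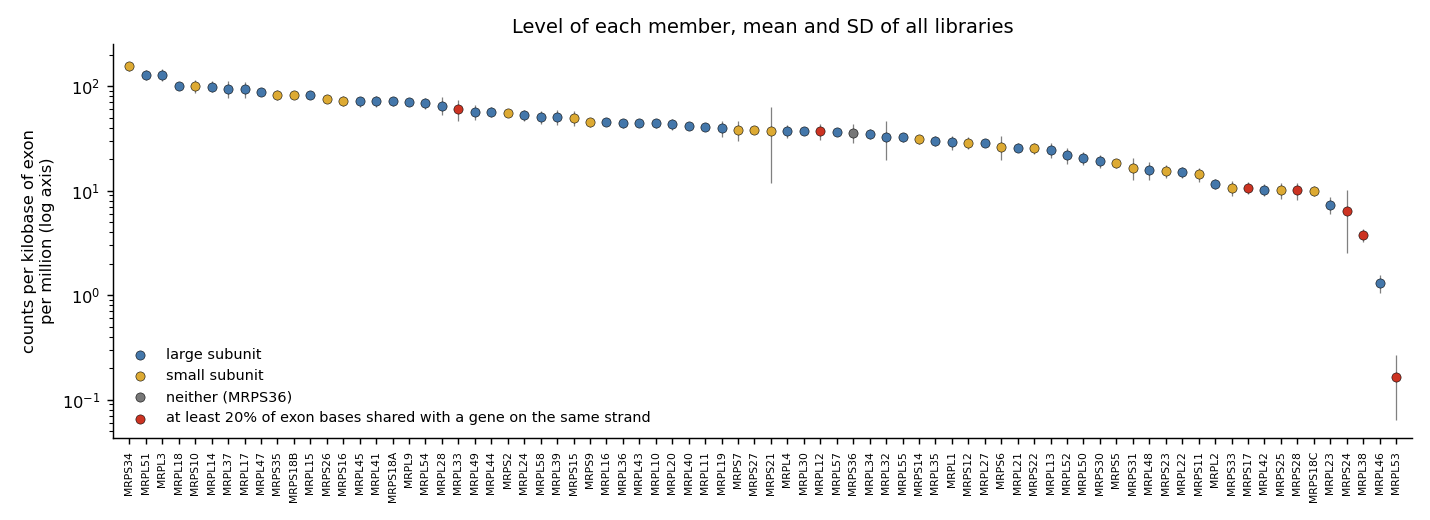
Level of each of the 78 genes in counts per kilobase of merged exons, scaled as CPM (log axis), as the mean and SD of 12 libraries, colored by subunit. Genes with at least 20% of exon bases shared on the same strand are in red, and 5 of these 7 lie among the 10 lowest levels, while MRPS21 has a wide bar at a mid-range level.

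The 78 genes together took 0.180 to 0.214% of the gene counts of a library. Summed over the 78 genes, the 3 wild-type libraries in high serum were at 1811, 1800 and 1841 CPM, and those in low serum at 1831, 1964 and 1858 CPM. The ΔLEO1 libraries were at 2083, 2136 and 1999 CPM in high serum and at 1963, 1992 and 1838 CPM in low serum. The 3 ΔLEO1 libraries in high serum were thus above all 9 others, and the other 3 groups overlapped. The group means were 1817 ± 20.7 (SD, n = 3), 1884 ± 69.9, 2073 ± 68.8 and 1931 ± 81.8 CPM in the same order, and the widest 95% Wilson interval of a library spanned 33.9 CPM, which covers counting error only. Relative to the ERCC transcripts, the sums were 181800 ± 50671 in wild-type cells in high serum, 91158 ± 25029 in wild-type cells in low serum, 263040 ± 60558 in ΔLEO1 cells in high serum and 109920 ± 53831 in ΔLEO1 cells in low serum. On this scale the wild-type groups did not overlap between the serum levels, nor did the ΔLEO1 groups. All gene counts divided by the effective ERCC library size separated the same groups. They were at 69.5 to 126 against 37.3 to 60.3 in wild-type and 105 to 158 against 30.0 to 90.7 in ΔLEO1 cells. The separation is therefore not particular to the 78 genes.

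**Figure D2:**
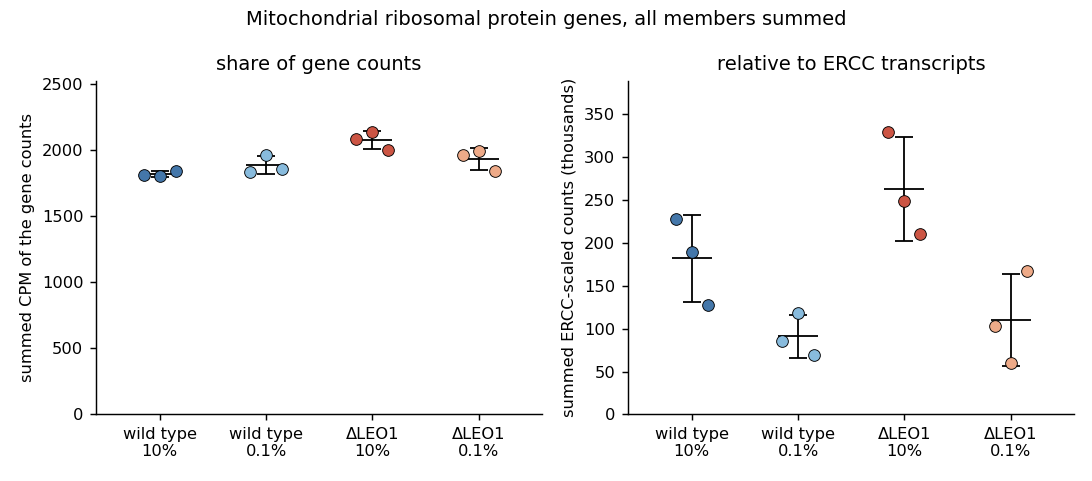
Summed values of the 78 genes in each library (points), with the mean and SD of 3 libraries, in CPM of the gene counts (left) and relative to the ERCC transcripts (right). On the left the 3 ΔLEO1 libraries in high serum lie at 1999 to 2136 CPM, above the 9 others. On the right the libraries of both genotypes in low serum lie below those of the same genotype in high serum, as do the gene counts as a whole.

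The balance of the subunits was taken as a ratio, which has no test here. The summed CPM of large subunit genes divided by that of small subunit genes was 1.89 to 1.92 in wild-type cells in high serum and 1.84 to 1.89 in low serum. In ΔLEO1 cells it was 1.995 to 2.06 in high serum and 1.96 to 2.07 in low serum. All 6 ΔLEO1 libraries were above all 6 wild-type libraries. The nearest libraries were library 3 (wild-type) at 1.917 and library 12 (ΔLEO1) at 1.957. MRPS21, a small subunit gene, was lower in ΔLEO1 cells, which raises the ratio there. Per kilobase of merged exons, MRPS21 was at 59.5 and 64.3 in wild-type cells in high and low serum. In ΔLEO1 cells it was at 14.3 and 11.8. A ratio without MRPS21 was not taken, so the separation of the genotypes is not shown for the other genes. The large subunit genes summed to 1184 ± 15.2 CPM in wild-type and 1376 ± 42.8 CPM in ΔLEO1 cells in high serum, and the small subunit genes to 622 ± 3.98 and 680 ± 29.2 CPM.

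The comparison of ΔLEO1 with wild-type cells in high serum asks which genes differ between the ΔLEO1 clone and the wild-type line in growing cells. MRPS21, which encodes a small subunit protein of a family shared with bacteria, was the only gene of the 77 called on the ERCC scale, where 4.2% of all tested genes were lower and 3.81% higher. It was at 21.7, 20.8 and 22.3 CPM in wild-type cells and at 6.29, 5.58 and 4.77 CPM in ΔLEO1 cells, from 790 to 875 and from 212 to 253 counts. The groups did not overlap on either scale. On the log2 scale its change was −1.59 (SE 0.514, edgeR quasi-likelihood adjusted p = 0.0275) relative to the ERCC transcripts. It was −1.97 (SE 0.161, adjusted p = 3.19e-06) when TMM scaling used the genes themselves, which sets the median change near 0 and so measures change relative to the other genes. On the relative scale this was 3.92-fold lower. The call on the ERCC scale was lost without library 1, 2, 5, 6 or 7 (adjusted p = 0.175, 0.115, 0.203, 0.227 and 0.0549), and on the relative scale it held without any one library.

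MRPS21 lies on chr1:150293720-150308979 on the plus strand (GRCh38, GENCODE 29), shares no exon base with another gene and no stretch of 58 bases with another transcript. Of the 12 other tested genes within 250000 bases of it, none was called by edgeR on the ERCC scale in either serum, nor had any an unadjusted p under 0.05. On the relative scale 4 of them were lower and 1 higher in high serum, with log2 fold changes from −0.88 to 0.58, and 4 were lower and none higher in low serum, from −0.73 to 0.31. The log2 fold change of MRPS21 was below that of each of these neighbors.

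In contrast to MRPS21, many of the other genes were higher in ΔLEO1 cells relative to the rest of the transcriptome. With TMM scaling 25 of the 77 genes (32.5%) were called higher and 2 (2.60%) lower, where 17.9% of all tested genes were higher and 21.4% lower. On the ERCC scale none was called higher by edgeR or by DESeq2, with 1 gene and 4 genes higher at an unadjusted p under 0.05, while the median of the 77 was 0.54 against 0.35 over all tested genes. Of the large subunit genes 17 of 50 rose and none fell, and of the small subunit genes 7 of 26 rose and 2 fell. The count of 25 was 13 without library 1, 12 without library 2, 16 without library 4 and 14 without library 5, and 41 without the highest-numbered library of each group.

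MRPL48, a large subunit protein of mitochondrial ribosomes only, had the highest change. It was at 12.1, 12.1 and 12.5 CPM in wild-type and 20.2, 19.0 and 18.1 CPM in ΔLEO1 cells, and the groups did not overlap. The log2 change was 0.63 (SE 0.107, adjusted p = 0.000680) relative to the other genes and 1.00 (SE 0.4998, adjusted p = 0.305) relative to the ERCC transcripts. MRPL1 was next, a protein of the flexible stalk of the large subunit that contacts departing tRNA, at 11.7, 11.2 and 9.84 against 16.8, 17.3 and 14.2 CPM. Its relative log2 fold change was 0.55 (SE 0.117, adjusted p = 0.00308). MRPS10, a small subunit protein, was at 44.6, 44.8 and 43.0 against 62.7, 64.5 and 55.8 CPM (0.46, SE 0.0890, adjusted p = 0.00172). MRPL22, which lines the exit tunnel for the nascent chain, was at 15.8, 14.8 and 15.7 against 21.0, 21.3 and 21.5 CPM (0.45, SE 0.119, adjusted p = 0.0104). In each of these genes the ΔLEO1 libraries were all above the wild-type libraries.

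MRPS36, the subunit of the 2-oxoglutarate dehydrogenase complex, was at 10.6, 10.4 and 13.4 against 14.6, 14.8 and 19.5 CPM. Its relative log2 fold change was 0.50 (SE 0.162, adjusted p = 0.0291), and the call was lost without library 1, 2 or 6 (adjusted p = 0.102, 0.105 and 0.119). MRPL17 had a relative log2 fold change of 0.44 and was not called (adjusted p = 0.0800). MRPS33, a small subunit protein of mitochondrial ribosomes only, was the other gene lower in ΔLEO1 cells, at 16.0, 12.8 and 14.5 against 11.2, 11.1 and 9.59 CPM (−0.45, SE 0.116, adjusted p = 0.00970). MRPL23, MRPS24, MRPS11 and MRPS25 followed it on the ERCC scale and were called on neither scale, with relative log2 values from −0.52 to −0.24. The lowest of these, that of MRPS24, was 0.13 without library 3.

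**Figure D3:**
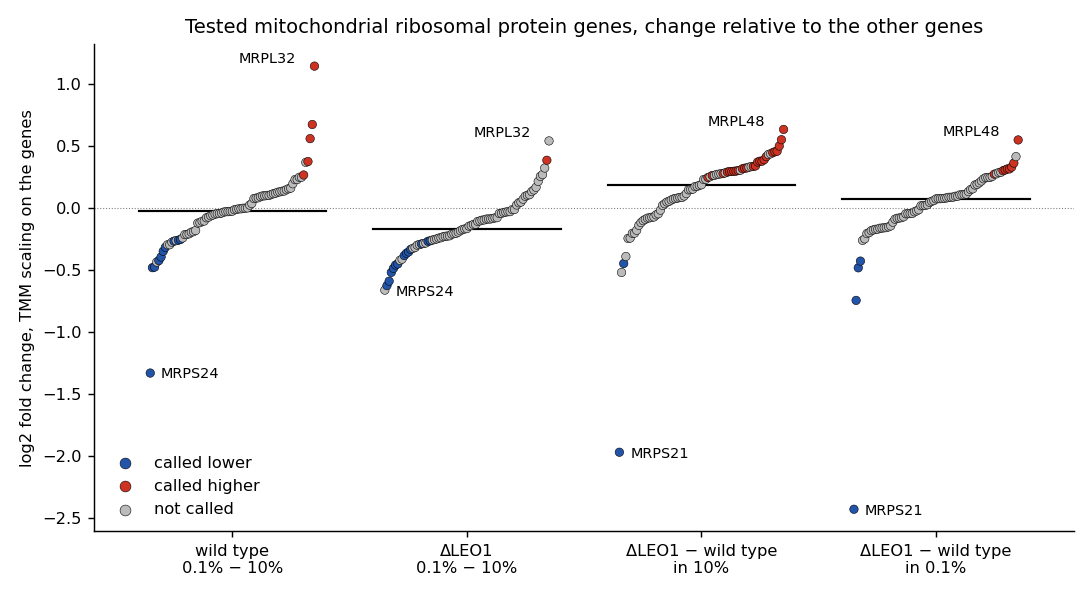
Log2 fold change of each of the 77 tested genes with TMM scaling on the genes, in order within each of 4 comparisons, with called genes in color and the median as a line. MRPS21 lies at −1.97 and −2.43 in the comparisons of the genotypes, away from the other genes, while MRPL48 has the highest value in both.

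In low serum the same comparison again had MRPS21 as the only gene called on the ERCC scale, where 3.41% of all tested genes were lower and 3.49% higher. MRPS21 was at 23.2, 25.9 and 27.7 CPM in wild-type and at 4.54, 3.57 and 6.01 CPM in ΔLEO1 cells. The log2 change was −2.06 (SE 0.523, adjusted p = 0.00205) on the ERCC scale and −2.43 (SE 0.165, adjusted p = 1.20e-06) on the relative scale, or 5.39-fold lower. It was called without any one library on both scales, at log2 values from −2.83 to −1.65 on the ERCC scale. The difference between the changes in low and high serum was not called (interaction −0.46, SE 0.223, adjusted p = 0.391 on the relative scale).

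On the relative scale 8 of the 77 genes (10.4%) were higher and 4 (5.20%) lower in ΔLEO1 cells in low serum, where 15.1% of all tested genes were higher and 17.3% lower. On the ERCC scale none was higher by edgeR or by DESeq2, also at an unadjusted p under 0.05, and the median of the 77 was 0.28 against 0.27 over all tested genes. That median was −0.18 without library 12 and 0.57 without library 11. MRPL48 again had the highest change, at 13.1, 13.3 and 16.1 against 20.8, 21.2 and 19.4 CPM (0.55, SE 0.107, adjusted p = 0.00241). MRPL13, a large subunit protein, was at 18.8, 21.8 and 19.98 against 25.1, 27.4 and 24.3 CPM (0.36, SE 0.0895, adjusted p = 0.00905). MRPL4 (0.33), MRPL28 (0.32) and MRPS15 (0.31) also rose, each with a call that was lost without library 7, 10 or 11, and in MRPL4 and MRPL28 without library 8 as well (adjusted p = 0.0521 to 0.0864 in these cases). MRPL39 (0.29), MRPS12 (−0.26) and MRPL32 (−0.17) were also near the ends on the ERCC scale and were called on neither scale. The count of 8 was 2 without library 7, 5 without library 8, 2 without library 10, 2 without library 11 and 16 without library 12.

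Beside MRPS21, the genes that fell in ΔLEO1 cells in low serum were all of the small subunit. MRPS6 was at 39.6, 42.3 and 29.6 CPM in wild-type and at 21.8, 21.5 and 22.5 CPM in ΔLEO1 cells (−0.75, SE 0.116, adjusted p = 0.000524). Of its exon bases 9.61% are shared on the same strand with other genes, SLC5A3 among them. MRPS25 was at 15.7, 16.2 and 15.7 against 11.7, 12.4 and 9.55 CPM (−0.48, SE 0.119, adjusted p = 0.00920). MRPS31 was at 11.4, 12.4 and 11.3 against 8.31, 9.16 and 8.30 CPM (−0.43, SE 0.111, adjusted p = 0.0120). In all of these the groups did not overlap, and on the ERCC scale, where their libraries overlapped, none was called.

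**Figure D4:**
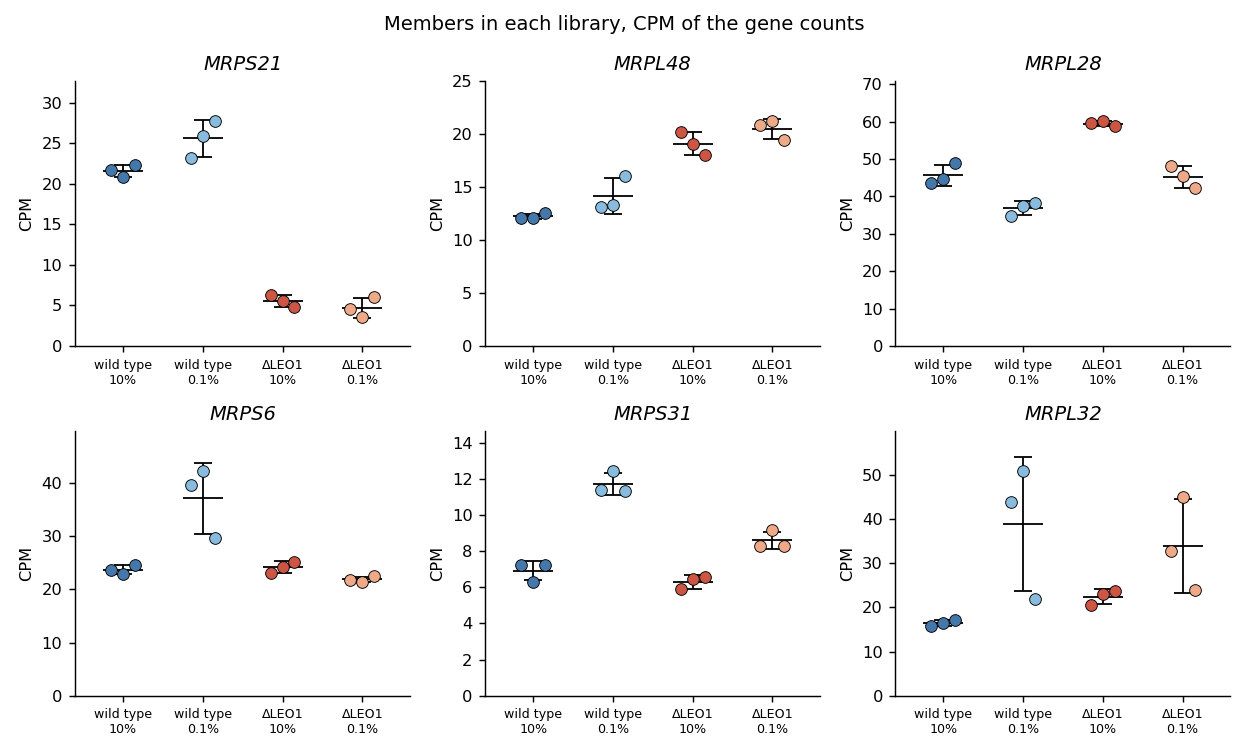
CPM of 6 of the genes in each library (points) with the mean and SD of 3 libraries in each group. MRPS21 was at 20.8 to 27.7 CPM in wild-type and 3.57 to 6.29 CPM in ΔLEO1 cells in both sera. MRPS6 was higher in low serum in wild-type cells only. MRPS31 and MRPL32 were higher in low serum in both genotypes, though MRPL32 was called on the relative scale in wild-type cells only. MRPL28 was lower in low serum in both genotypes.

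The comparison of low with high serum in wild-type cells asks what changes with quiescence. On the ERCC scale 14 of the 77 genes (18.2%) were lower, where 27% of all tested genes were lower and 0.831% higher. None was higher by edgeR or DESeq2, also at an unadjusted p under 0.05. The median log2 fold change of the genes was −0.99 and that of all tested genes −0.97. MRPS24, a small subunit protein, had the lowest value, at 467, 418 and 718 ERCC-scaled counts in high serum and 106, 175 and 92.4 in low serum (−2.11, SE 0.551, adjusted p = 0.00224), and its call was lost without library 7 (adjusted p = 0.0517). MRPL37, a large subunit protein of mitochondrial ribosomes only, was at 7920, 6468 and 4075 against 2276, 2536 and 1819 ERCC-scaled counts (−1.48, SE 0.487, adjusted p = 0.0179). MRPL33, MRPL23, MRPS7 and MRPL28 followed, all of families shared with bacteria, with log2 fold changes from −1.42 to −1.35 and adjusted p-values from 0.0252 to 0.0387.

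The number of genes called lower in wild-type cells depended on single libraries. It was 1 without library 1, 1 without library 2 and 36 without library 3. It was 0 without library 7, 8 without library 8 and 1 without library 9. The calls of MRPL37, MRPL33, MRPS7 and MRPL28 were lost without library 1, 2, 7 or 9, and that of MRPL23 without library 5 or 8 as well. Leaving out a ΔLEO1 library, which is in neither group compared but enters the common fit, gave 9 without library 4, 5 without library 5, 9 without library 6, 7 without library 10, 46 without library 11 and 59 without library 12.

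Relative to the other genes, 10 of the 77 (13.0%) fell and 5 (6.49%) rose in wild-type cells in low serum, where 16.1% of all tested genes were lower and 15.5% higher. All 10 that fell were also called on the ERCC scale. MRPS7, which helps to form the head of the small subunit, was at 29.3, 30.5 and 33.7 CPM in high serum and at 23.7, 26.4 and 23.9 CPM in low serum (−0.42, SE 0.0919, adjusted p = 0.00527). MRPL37 was at 62.8, 61.6 and 58.7 against 48.6, 42.03 and 48.8 CPM (−0.48, SE 0.0896, adjusted p = 0.00234). MRPL28 was at 43.5, 44.8 and 48.9 against 34.8, 37.5 and 38.3 CPM (−0.40, SE 0.0916, adjusted p = 0.00751). MRPS24 was at 3.701, 3.98 and 10.3 against 2.26, 2.90 and 2.48 CPM (−1.33, SE 0.352, adjusted p = 0.0144). Library 3 held the highest of these values, and without it the relative change was −0.68 (adjusted p = 0.0316), while the call was lost without library 7 (adjusted p = 0.0543). Without library 7, 5 genes fell and 3 rose, and without library 12, 9 rose.

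The genes that rose relative to the others were MRPL32, MRPS31, MRPS6, MRPS30 and MRPL10. MRPL32, a large subunit protein that is cleaved in the matrix by the m-AAA protease before it joins the ribosome, was at 15.7, 16.6 and 17.2 CPM in high serum and at 43.8, 50.8 and 21.8 CPM in low serum (1.14, SE 0.282, adjusted p = 0.0102). Libraries 7 and 8 were well above library 9, and on the ERCC scale the groups overlapped (0.27, SE 0.487, adjusted p = 0.616). MRPS31 was at 7.21, 6.30 and 7.22 against 11.4, 12.4 and 11.3 CPM (0.67, SE 0.112, adjusted p = 0.00109). MRPS6 was at 23.7, 22.9 and 24.6 against 39.6, 42.3 and 29.6 CPM (0.56, SE 0.115, adjusted p = 0.00402). MRPS30, which despite its symbol sits in the large subunit, was at 24.2, 22.6 and 20.3 against 34.5, 30.2 and 27.6 CPM (0.38, SE 0.0966, adjusted p = 0.0128), a call lost without library 7 (adjusted p = 0.0520). MRPL10, part of the base of the stalk, had 0.27 (SE 0.0866, adjusted p = 0.0360), and its call was lost without library 1, 2, 3, 5, 7 or 8 (adjusted p = 0.0647 to 0.145). MRPL50 had 0.37 and was not called (adjusted p = 0.0642). The ERCC-scaled change of MRPS31, MRPS6, MRPS30 and MRPL10 was below 0, from −0.70 to −0.28, and not called.

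In ΔLEO1 cells 50 of the 77 genes (64.9%) were lower in low than in high serum on the ERCC scale, where 36.4% of all tested genes were lower and 0.793% higher. None was higher by edgeR or DESeq2, also at an unadjusted p under 0.05. The median log2 fold change of the genes was −1.25 and that of all tested genes −1.05, and 13 of the 77 were above the median gene. Of the genes of families shared with bacteria 37 of 46 fell, and of those of mitochondrial ribosomes only 12 of 30, or 38 of 48 and 11 of 28 with MRPS18A and MRPS18B moved to the former. As first classed, their median log2 fold changes were −1.28 and −1.16. With TMM scaling on the genes 9 of 46 and 3 of 30 fell, against 12.1% of all tested genes. In wild-type cells 9 of 46 and 5 of 30 fell on the ERCC scale, against 27% of all tested genes. The lowest was MRPS24, at 644, 406 and 536 against 158, 80.1 and 242 ERCC-scaled counts (−1.74, SE 0.545, adjusted p = 0.0154). MRPS7 was at 6329, 4734 and 3686 against 1365, 798 and 2310 ERCC-scaled counts (−1.72, SE 0.496, adjusted p = 0.00836). MRPL33, MRPL49, MRPS28 and MRPL28 followed, with values from −1.66 to −1.55 and adjusted p-values from 0.0118 to 0.0258. In each of these 6 genes the groups did not overlap, and library 12 was the highest of its group. All 6 calls were lost without library 4 or 10, those other than MRPS7 also without library 11, and that of MRPS28 without library 5 (adjusted p = 0.0549 to 0.159).

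The count of 50 was 16 without library 2, 0 without library 4, 5 without library 5, 16 without library 7, 0 without library 10, 1 without library 11 and 76 without library 12. Without library 12 the median of the genes was −1.72, and their median less that of all genes was −0.13 in place of −0.21. On the relative scale 13 of the 77 (16.9%) fell and 1 (1.30%) rose, where 12.1% of all tested genes were lower and 15.5% higher. The count that fell was 8 without library 4 and 6 without library 5. MRPS7 was at 40.0, 40.6 and 35.0 against 25.9, 26.7 and 25.5 CPM (−0.63, SE 0.0917, adjusted p = 0.000654). MRPL49, a large subunit protein of mitochondrial ribosomes only, was at 48.6, 50.7 and 51.9 against 36.3, 34.7 and 39.1 CPM (−0.52, SE 0.0799, adjusted p = 0.000862). MRPL33 was at 26.7, 28.0 and 29.6 against 19.8, 19.6 and 19.0 CPM (−0.59, SE 0.107, adjusted p = 0.00231). MRPS31 was the gene that rose, at 5.88, 6.47 and 6.57 against 8.31, 9.16 and 8.30 CPM (0.39, SE 0.112, adjusted p = 0.0248), and this call was lost without library 4, 5, 10 or 11 (adjusted p = 0.0591 to 0.0998). MRPL32 was at 20.5, 23.1 and 23.6 against 32.7, 45.0 and 23.8 CPM (0.54, SE 0.278, adjusted p = 0.170). MRPL34, MRPL50, MRPS17 and MRPS33 were also near the top on the ERCC scale, with values from −0.88 to −0.83, and were called on neither scale.

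Whether the response to serum differed between the genotypes was tested as the interaction, in which a negative value means a larger decrease or smaller increase in ΔLEO1 cells. No gene of the 77 was called on the ERCC scale by edgeR or DESeq2, nor had one an unadjusted p under 0.05, and 0.0604% and 0.113% of all tested genes were lower and higher. Their median was −0.24, against −0.07 over all tested genes, and it was −0.68 without library 12 and 0.0550 without library 11. On the relative scale MRPS6 alone was called (−0.77, SE 0.163, adjusted p = 0.0376), where 0.453% of all tested genes were lower and 1.55% higher. As given above, MRPS6 rose with low serum in wild-type cells and was at 23.1, 24.3 and 25.3 CPM in high serum and 21.8, 21.5 and 22.5 CPM in low serum in ΔLEO1 cells. Its call was lost without any one of libraries 1 to 8, 10 and 11 (adjusted p = 0.0510 to 0.113). On the ERCC scale MRPS6 was at −0.89. The genes with the lowest ERCC-scaled interaction beside it were MRPL32 (−0.96) and MRPL1 (−0.61), and those with the highest were MRPL23 (0.47), MRPS24 (0.37) and MRPS33 (0.13), each with an adjusted p of 1.00. Leaving out 1 library gave the last 3 genes values of 0.0264 to 0.81, −0.0410 to 0.71 and −0.31 to 0.45, the lowest without library 12 and the highest without library 11.

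Of the genes whose symbols do not tell their place, MRPS18A, MRPS18B and MRPS18C are paralogs related to the same bacterial protein, with MRPS18A in the large subunit and the other two in the small subunit. MRPS18A rose in ΔLEO1 cells in high serum relative to the other genes, at 18.1, 18.5 and 21.5 against 26.04, 24.1 and 23.8 CPM (0.34, SE 0.115, adjusted p = 0.0356), while MRPS18B (−0.05) and MRPS18C (0.15) were not called. Of the exon bases of MRPS18A 47.0% and of those of MRPS18C 40.2% overlap a gene on the opposite strand. Since the strand setting of the counting is not given, their reads cannot be told apart from those of RSPH9 and ABRAXAS1 with certainty. MRPL58, a peptidyl-tRNA hydrolase that is built into the large subunit, was called in 1 comparison, lower in ΔLEO1 cells in low serum than in high serum on the ERCC scale (−1.39, SE 0.510, adjusted p = 0.0312). As no gene was called there without library 4 or 10, that call was lost without either.

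Genes that act with the mitochondrial ribosome were examined for comparison. The 5 further mitoribosomal proteins DAP3, GADD45GIP1, CHCHD1, AURKAIP1 and PTCD3 were all lower in ΔLEO1 cells in low serum on the ERCC scale, with log2 values from −1.45 for AURKAIP1 to −1.18 for PTCD3, and none was called by edgeR in wild-type cells, where 4 had an unadjusted p under 0.05. Relative to the other genes only AURKAIP1 of the 5 was called (−0.32, adjusted p = 0.0376). Of 24 tested assembly factors, 7 (29.2%) fell with low serum in ΔLEO1 cells and 2 (8.33%) in wild-type cells on the ERCC scale, where 36.4% and 27% of all tested genes were lower. Relative to the other genes 2 fell and 3 rose in ΔLEO1 cells, and 2 fell and 5 rose in wild-type cells. On this scale 12.1% of all tested genes were lower and 15.5% higher in ΔLEO1 cells, and 16.1% and 15.5% in wild-type cells. The rRNA methyltransferase TFB1M and MPV17L2, which acts in assembly of the large subunit, were the 2 that fell in both (−1.51 and −1.42 in wild-type, −1.45 and −1.73 in ΔLEO1 cells). Of 16 translation factors, 10 (62.5%) fell in ΔLEO1 and 3 (18.8%) in wild-type cells on the ERCC scale, and 4 and 1 on the relative scale, with the recycling factor GFM2 (−1.60 and −1.75) and SLIRP (−1.52 and −1.27), which stabilizes mitochondrial mRNAs, among those that fell in both, on the ERCC scale, the values being those of ΔLEO1 and then wild-type cells. The ERCC-scaled calls of these 3 lists in ΔLEO1 cells were all lost without library 10, and numbered 5, 24 and 16 without library 12. Relative to the other genes, the mitochondrial DNA polymerase POLG (0.69), the helicase TWNK (0.72) and LRPPRC (0.53), the partner of SLIRP, were higher in ΔLEO1 cells in high serum, where 5 of 9 genes of transcription and replication of mitochondrial DNA and 4 of 16 translation factors rose, and 2 translation factors fell. In that comparison 17.9% of all tested genes were higher and 21.4% lower. Of 7 tested regulators of nuclear genes for mitochondrial proteins, none was called by edgeR in the comparisons of the genotypes on either scale, where 1 had an unadjusted p under 0.05, in high serum on the relative scale. On the ERCC scale 2 of the 7 (28.6%), GABPB1 (−1.31) and MYC (−1.39), fell with low serum in ΔLEO1 cells, where 36.4% of all tested genes were lower. Calls of this list numbered 0 without library 10 and 7 without library 12.

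The mRNAs encoded by mitochondrial DNA, which these ribosomes translate, were measured in the same libraries. They summed to 19330, 19987 and 17895 CPM in high serum and to 28265, 29072 and 35341 CPM in low serum in wild-type cells. In ΔLEO1 cells they were at 23134, 25601 and 25491 CPM in high serum and at 36228, 34075 and 19852 CPM in low serum, where library 12 was below the high serum group and libraries 10 and 11 above it. On the relative scale 10 of the 13 were higher in low serum in wild-type cells, with a median log2 fold change of 0.72, and none was called by edgeR in ΔLEO1 cells, with 1 at an unadjusted p under 0.05 and a median of 0.25. The medians of the mitochondrial ribosomal protein genes were −0.03 and −0.17. The 78 tested cytosolic ribosomal protein genes had a median of 0.46 in wild-type and 0.40 in ΔLEO1 cells in this comparison, with 43 and 30 of them higher and none lower. The 74 tested nuclear genes for subunits of oxidative phosphorylation had −0.11 and −0.18, with 14 and 19 lower and 1 and 0 higher. Of all tested genes 16.1% were lower and 15.5% higher on this scale in wild-type cells, and 12.1% and 15.5% in ΔLEO1 cells. In ΔLEO1 cells 62 of these 74 and 2 of the 78 cytosolic ribosomal protein genes were lower with low serum on the ERCC scale. This stands beside the 50 of 77 given above and 36.4% of all tested genes. None of either list was called lower without library 10. The medians of these lists were described without a test of the lists against each other.

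**Figure D5:**
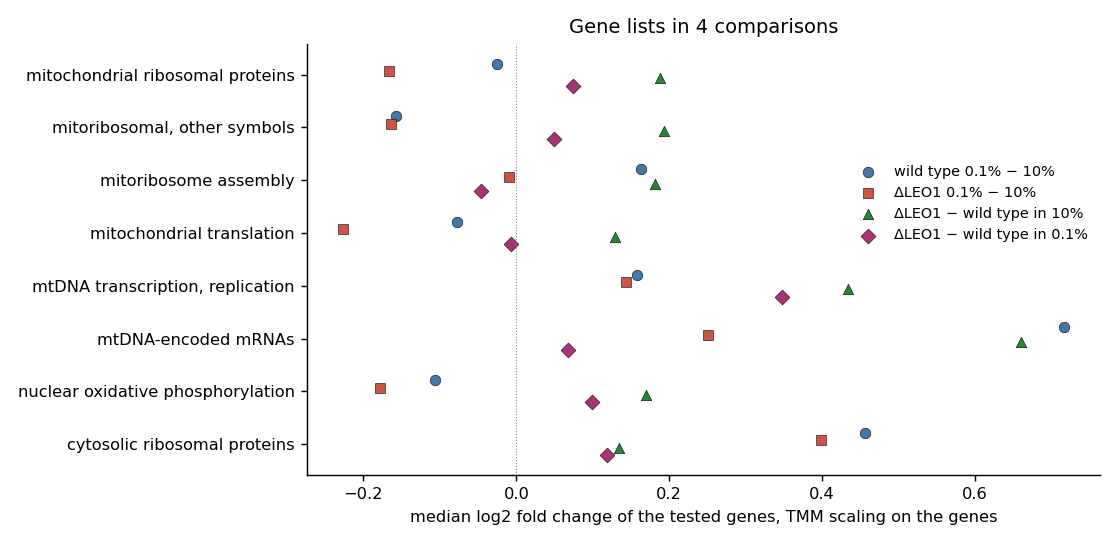
Median log2 fold change of the tested genes of 8 lists with TMM scaling on the genes, in 4 comparisons. With low serum in wild-type cells the mitochondrial ribosomal proteins lie at −0.03, the mRNAs encoded by mitochondrial DNA (mtDNA) at 0.72 and the cytosolic ribosomal proteins at 0.46.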

How the data were processed

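RNA was measured in 12 libraries of BJ-5ta cells. The authors converted the reads with bcl2fastq 2.20.0.422, aligned them with STAR (2.7.10a and GRCh38 per the submitters' processing notes) to a reference that included the ERCC sequences and counted them in exons with featureCounts 1.5.1. The deposited values are raw read counts of genes and ERCC transcripts that had not been normalized. The annotation release and the strand setting are not given in the sources used here.

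Testing, with the study's filter of over 1 CPM in at least 3 libraries, was done in R 4.3.3 with edgeR 4.0.16. The effective library size was the ERCC total times the TMM factor of the ERCC transcripts, and 1 fit of 4 groups gave all comparisons with the two-sided quasi-likelihood test. A gene was called where its p, adjusted by Benjamini-Hochberg over all tested genes, was under 0.05. ERCC-scaled counts are scaled as CPM but to the effective ERCC library size, and CPM to the total of the gene counts. TMM scaling on the genes is given beside the ERCC scale because it moved the number of calls by over 1.5 times.

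A gene name table gave symbols for 60401 of the identifiers, and GENCODE 29 on GRCh38 gave positions for 58453. Named genes were the 6 highest and 6 lowest of each comparison, the 3 highest and 3 lowest of the interaction, the 5 highest and 5 lowest levels, MRPL23, the MRPS18 paralogs, MRPS30, MRPL58, MRPS36, genes left out by the filter, and called genes of the other lists (where over 6 were called, the 3 highest and 3 lowest). The promoter sites shown were chosen after the values of their genes were seen. The members and lists were chosen with earlier results of these data known.

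Alternatives were other size factors, the likelihood ratio test, DESeq2 1.42.0, other filters, the 6 libraries compared, and libraries left out, summed or given a term. The fit was tested on simulated counts for wild-type cells in both sera (12964 genes). There 152 of 200 genes changed by a log2 of 2 were recovered, and 10 of 12764 unchanged genes were called. Each gene was drawn on its own around the ERCC library sizes, without a shift shared by all genes. These numbers therefore do not measure how such a shift, or a smaller change, affects the calls.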

Additional observations from a re-analysis of the deposited data

Results flagged for a closer look

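MRPS6 was flagged because its response to serum differed between the genotypes by a test of the difference, with a relative log2 interaction of −0.77 (edgeR quasi-likelihood, adjusted p = 0.0376). This call held in 2 of the 12 fits that left out 1 library, and MRPS6 was not called on the ERCC scale. MRPL9, a large subunit protein, was flagged because its relative level in every wild-type library in low serum was above those in high serum (29.4, 29.5 and 29.02 against 28.4, 27.9 and 26.9 CPM) and in every ΔLEO1 library below them (31.2, 30.8 and 30.1 against 33.8, 33.4 and 32.1 CPM). Per kilobase of merged exons, however, its mean was lower in low serum in both genotypes. It was 69.3 ± 2.67 in high and 66.8 ± 2.55 in low serum in wild-type cells. In ΔLEO1 cells it was 77.4 ± 2.01 and 68.7 ± 4.49, so the opposite direction depends on the scaling. Of the exon bases of MRPL9 38.5% overlap other genes, OAZ3 among them. Its relative log2 interaction was −0.16 and not called, and the difference in direction was not tested otherwise. The share of all tested genes with such a pattern is not given here.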

How the results depend on the processing

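No paired analysis was possible because the libraries carry running numbers that no groups share. The number of genes called lower with low serum in wild-type cells, 14 on the ERCC scale, was 38 with DESeq2 and ERCC size factors, 9 with DESeq2 size factors on the genes, 2 without the filter, 55 with the 6 libraries compared alone, 58 without the highest-numbered library of each group, 5 with a term for it, 0 with the 2 other libraries of each group summed, and 0 to 59 without one library. In ΔLEO1 cells the 50 were 13 with TMM or DESeq2 size factors on the genes, 14 without the filter, 0 with 6 libraries, 77 without the highest-numbered libraries, 13 with a term, 0 when summed and 0 to 76 without one library. Between the genotypes the 1 lower gene was 2 (high serum) and 4 (low serum) with either scaling on the genes, 0 in both when summed and 2 in low serum without the highest-numbered libraries, and was 0 to 1 and 1 to 1 without one library. Genes called higher, 0 on the ERCC scale and without any one library, numbered 5, 1, 25 and 8 with either scaling on the genes (serum in wild-type and ΔLEO1 cells, then genotype in 10% and low serum). The interaction, with 0, had 1 lower gene with either scaling. The cause of these differences was not tested.

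With TMM on the genes, leaving out one library gave 5 to 12, 6 to 16, 2 to 3, 4 to 5 and 0 to 1 lower and 3 to 9, 0 to 2, 12 to 31, 2 to 16 and 0 to 0 higher genes in the same order and the interaction. Without the highest-numbered libraries it gave 16 lower and 9 higher, 26 and 5, 5 and 41, 26 higher in low serum between the genotypes, and 10 and 1 for the interaction.

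Median changes were −0.0254 and −0.0237 (wild-type serum) and −0.17 and −0.17 (ΔLEO1 serum) with TMM and DESeq2 scaling, and −1.85 (ΔLEO1 serum), −0.32 (genotype in low serum) and −0.75 (interaction) without the highest-numbered libraries. Without one library they were −1.21 to −0.78, −1.72 to −0.94, 0.35 to 0.77, −0.18 to 0.57 and −0.68 to 0.0550. Less the median gene they were −0.0432 to 0.0245, −0.25 to −0.13, 0.18 to 0.25, −0.0308 to 0.0898 and −0.23 to −0.0695 on the ERCC scale, and −0.0402 to 0.0266, −0.22 to −0.12, 0.17 to 0.25, −0.00628 to 0.0940 and −0.18 to −0.0687 with TMM. These differences were −0.22, −0.31, 0.26 and 0.10 without the filter in the 4 comparisons, and −0.13 (ΔLEO1 serum), 0.10 (genotype in low serum, 0.11 with TMM) and −0.0868 (interaction) without the highest-numbered libraries.

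Scaling on the genes moves the median of all genes from −0.97 (wild-type serum) and −1.05 (ΔLEO1 serum) to near 0, so that any gene above that median can turn direction. Of the genes called with it, in wild-type cells MRPL10 was 0.27 with TMM and 0.27 with DESeq2 size factors, MRPS30 0.38 and 0.38, MRPS31 0.67 and 0.68, and MRPS6 0.56 and 0.56, and in ΔLEO1 cells MRPS31 was 0.39 and 0.38. The spread of the ERCC counts limits the ERCC scale, on which the median SD of a gene within a group was 0.333 to 0.7498 (log2), against 0.0815 to 0.123 for CPM.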
